A study of Mus musculus with 9 samples.

Results

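The insulin-like growth factor (IGF) family was followed as 10 genes chosen by symbol, the ligands Igf1 and Igf2, the receptors Igf1r and Igf2r, and the binding protein genes Igfbp2, Igfbp3, Igfbp4, Igfbp5, Igfbp6 and Igfbp7. All 10 were found among the 19240 genes of an RNA-seq table of 9 mouse libraries. The libraries fall into 3 groups of 3, an overexpression control (OEA8_Ctrl), cells carrying S100A8 mutated at residue 67 (OEA8_67) and cells carrying S100A8 mutated at residue 69 (OEA8_69). S100A8 binds calcium and is made mainly by neutrophils and monocytes, and the comparison asks which genes respond to a change of 1 residue in it. The labels do not state what the control cells carried, and the paper's text takes cells overexpressing unmutated S100A8 as the reference for both mutants. The labels give neither strain nor age of the mice, and do not tell whether replicates were grown separately, so each p-value reflects variation among libraries that could be purely technical.

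The labels call the cells hematopoietic stem cells, whereas the paper's results name mouse embryonic fibroblasts as the cells given S100A8 or its mutants for this RNA-seq. The study's methods describe lentiviral infection of both cell types and a selection with puromycin. Of 18 hematopoietic stem and progenitor markers, 11 were below 0.1 FPKM on average, among them Ptprc (CD45), Kit and Gata1, and 6 were at 1 FPKM or more. These 6 were Ly6a (155 FPKM), Gata2 (45.6), Cd34 (44.6), Procr (7.35), Runx1 (4.81) and Mecom (1.46), which other cell types express as well. Of 20 fibroblast markers, 19 were at 1 FPKM or more and 0 below 0.1. The cells are therefore called OEA8 cells here. FPKM divides the fragments of a gene by transcript length and by library size, so levels of different genes can be set side by side. The values of a library summed to between 469909 and 501342 FPKM, with 15800 to 16179 genes above 0. Libraries of the same group correlated at 0.9948 to 0.9975 and those of different groups at 0.9907 to 0.9964, ranges that overlap. Sequencing depth is unknown.

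IGF1 and IGF2 are secreted growth factors that signal through IGF1R, a receptor tyrosine kinase upstream of the PI3K and AKT pathway. IGF2R binds IGF2 and carries it to lysosomes without signalling, and it also transports lysosomal enzymes. Most IGF outside cells is held by binding proteins, which keep it from the receptor until proteases cleave them. Igf2 is imprinted and strongly expressed in embryonic mesenchyme, where fibroblasts of the embryo arise, and it declines after birth in the mouse.

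Of the family, Igf2, Igfbp4 and Igfbp6 differed most clearly among the groups, and the 250 bases before a RefSeq start of each are shown because these 3 genes carry the results. The sequences and positions are those of RefSeq on GRCm38.p6, the assembly of mm10. Capitals mark matches, on either strand, to the TATA-type words TATAAA and ATAAAA, which can overlap, to the CCAAT box, to the GC box GGGCGG, to the E-box CACGTG, to the AP-1 word TGACTCA and to the Ets word CCGGAAGT. In the same table Igf2 lies at chr7:142650768-142666816 on the minus strand, Igfbp4 at chr11:99040005-99052655 on the plus strand and Igfbp6 at chr15:102144186-102149512 on the plus strand. The Igf2 window, chr7:142657497-142657746 on the minus strand, is the last of 4 Igf2 starts in the table and was chosen for display after the motifs of all 4 had been counted. The Igfbp4 window is chr11:99040994-99041243 on the plus strand, and the Igfbp6 window is chr15:102143936-102144185 on the plus strand.
Igf2: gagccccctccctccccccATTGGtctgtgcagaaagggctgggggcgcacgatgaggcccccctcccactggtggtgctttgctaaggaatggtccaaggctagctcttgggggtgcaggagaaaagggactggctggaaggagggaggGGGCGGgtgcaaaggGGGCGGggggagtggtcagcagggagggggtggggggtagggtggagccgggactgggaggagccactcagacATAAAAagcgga
Igfbp4: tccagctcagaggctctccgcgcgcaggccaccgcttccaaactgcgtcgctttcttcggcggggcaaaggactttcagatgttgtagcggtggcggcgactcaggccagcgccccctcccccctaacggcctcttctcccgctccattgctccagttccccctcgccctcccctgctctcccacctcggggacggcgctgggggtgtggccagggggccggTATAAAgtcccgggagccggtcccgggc
Igfbp6: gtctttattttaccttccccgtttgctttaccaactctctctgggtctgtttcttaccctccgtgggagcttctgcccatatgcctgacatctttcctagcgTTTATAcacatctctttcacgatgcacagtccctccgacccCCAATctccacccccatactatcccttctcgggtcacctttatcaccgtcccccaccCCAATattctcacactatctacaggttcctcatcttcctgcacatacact

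The Igf2 window held 1 ATAAAA, beginning at position -12 from the start, 1 CCAAT and 2 GGGCGG, and 66.0% of its bases were G or C. The Igfbp4 window held a TATAAA at position -28 and no other motif searched, with 69.2% G or C. The Igfbp6 window held 2 CCAAT and 1 TATAAA, the latter read on the opposite strand, with 49.6% G or C. The other Igf2 starts held fewer matches, none of the 7 motifs at the first and second and 1 GGGCGG at the third. None of the 7 motifs was in all 3 windows shown. Among 32851 windows of the same length, TATAAA was in 12.4% and ATAAAA in 17%. The CCAAT box was in 33.8%, GGGCGG in 32.7%, CACGTG in 6.02%, TGACTCA in 4.46% and CCGGAAGT in 2.88%. The table gives a single value per gene, and which Igf2 start was used was not measured.

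Per length, the binding protein genes were the most abundant members. Averaged over the 9 libraries, Igfbp7 stood at 1220 ± 72.7 FPKM (SD), Igfbp2 at 810 ± 57.5 and Igfbp4 at 541 ± 63.3. In every library these 3 ranked between 35 and 155 among all genes. Igf2 followed at 69.4 ± 12.4 FPKM beside Igfbp6 at 69.2 ± 7.74, and the ranges of these neighbours overlapped, Igf2 being the higher in 3 of 9 libraries. The receptors came next, Igf2r at 43.5 ± 3.50 FPKM and Igf1r at 13.7 ± 0.413. Igfbp3 at 1.91 ± 0.337 FPKM and Igf1 at 1.60 ± 0.352 overlapped too, Igfbp3 being higher in 7 of 9 libraries, and Igfbp5 was near 0 at 0.0478 ± 0.0199. All other neighbours in this order were separated in every library.

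**Figure D1:**
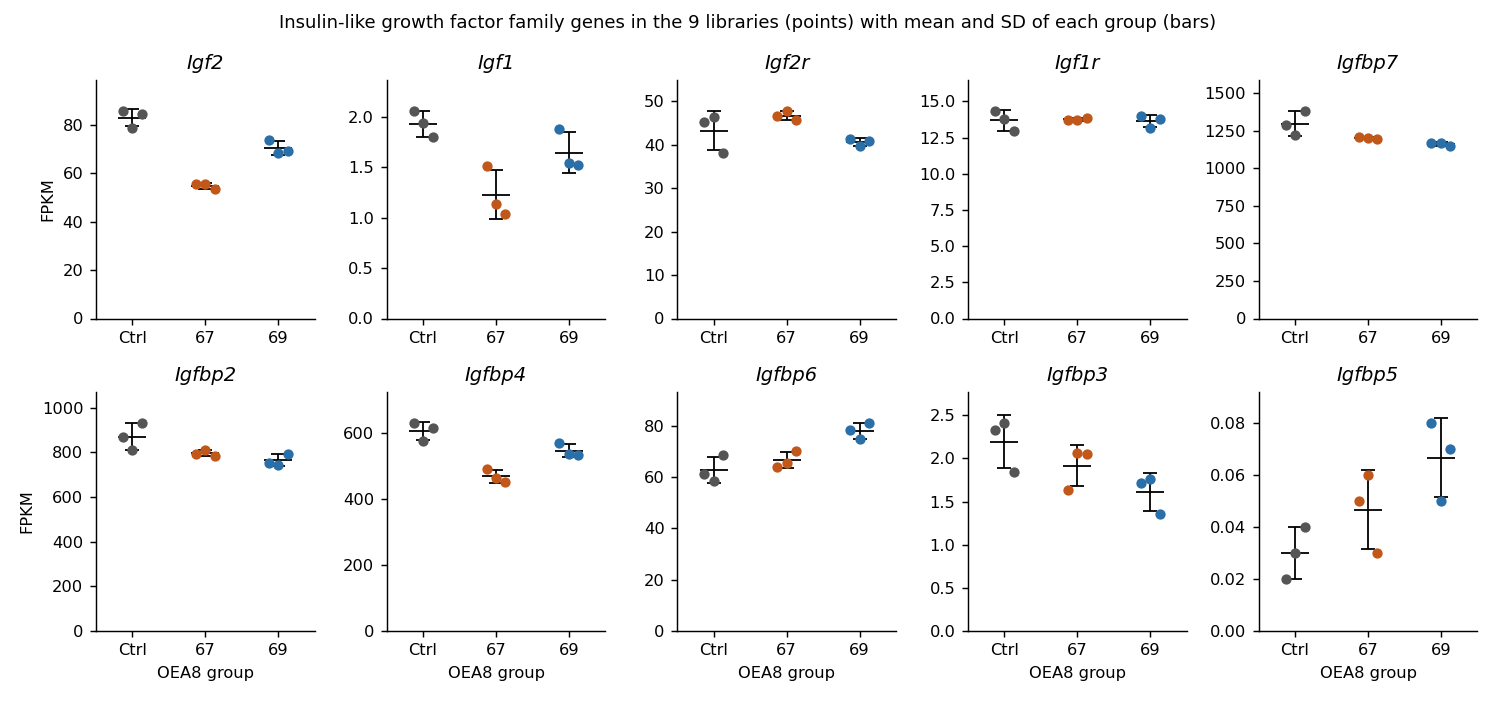
FPKM of the 10 family genes in each library (points) with the mean and SD of each group of 3 (bars); every axis starts at 0. Igf2 and Igfbp4 are lowest in the 3 OEA8_67 libraries, Igfbp6 is highest in the 3 OEA8_69 libraries, and the groups overlap for Igf1r at 12.94 to 14.34 FPKM.

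Igf2 was lower in both mutants than in the control, and lower in OEA8_67 than in OEA8_69. Its levels were 85.78, 78.83 and 84.42 FPKM in OEA8_Ctrl, 55.64, 55.5 and 53.5 in OEA8_67, and 73.86, 68.3 and 69.21 in OEA8_69. The 3 groups did not overlap in any pair. Differences were tested with limma on log2(FPKM + 1) over all 12012 genes averaging 0.5 FPKM or more, and those with a Benjamini-Hochberg adjusted p under 0.05 were called. The group mean of Igf2 fell by 33.9% in OEA8_67, a log2 difference of -0.59 ± 0.05 (SE, n = 3 per group, limma adjusted p = 8.17e-06). In OEA8_69 it fell by 15.1% (log2 difference -0.23 ± 0.05, limma adjusted p = 0.0072). OEA8_69 was 28.4% above OEA8_67 (log2 difference 0.35 ± 0.05, limma adjusted p = 0.0021). Igf2 was called in all 3 pairs under each of 19 alternative settings. In bulk RNA, fewer cells expressing a gene and less of its RNA per cell cannot be told apart.

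Igf1 was far less abundant than Igf2 and was lower in OEA8_67. Its levels were 2.06, 1.94 and 1.8 FPKM in OEA8_Ctrl, 1.51, 1.14 and 1.04 in OEA8_67, and 1.88, 1.54 and 1.52 in OEA8_69. OEA8_67 lay below both other groups, the nearest libraries being 1.51 and 1.52 FPKM, while OEA8_69 and OEA8_Ctrl overlapped. The log2 difference of OEA8_67 from OEA8_Ctrl was -0.40 ± 0.09 (SE, limma adjusted p = 0.0194). That call was lost without OEA8_Ctrl replicate 1 (0.0696), OEA8_67 replicate 2 (0.0814) or OEA8_67 replicate 3 (0.0817). The difference of OEA8_69 from OEA8_Ctrl did not pass the test (-0.15, 95% interval -0.35 to 0.05, limma adjusted p = 0.331), nor did that of OEA8_69 from OEA8_67 (0.25, interval 0.05 to 0.45, limma adjusted p = 0.156). The ratio of Igf2 to Igf1 was 43.1 ± 3.36 (SD) in OEA8_Ctrl, 45.7 ± 7.75 in OEA8_67 and 43.1 ± 3.32 in OEA8_69.

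Igf1r, the signalling receptor, did not differ beyond its spread. Its levels were 14.34, 13.75 and 12.94 FPKM in OEA8_Ctrl, 13.74, 13.69 and 13.87 in OEA8_67, and 13.98, 13.19 and 13.76 in OEA8_69. All groups overlapped. The log2 difference from OEA8_Ctrl had a 95% interval of -0.10 to 0.12 in OEA8_67 and -0.11 to 0.10 in OEA8_69. Larger changes than these were outside the intervals for this gene.

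Igf2r, the clearing receptor, stood at 45.25, 46.29 and 38.15 FPKM in OEA8_Ctrl, 46.58, 47.8 and 45.7 in OEA8_67, and 41.41, 39.7 and 40.88 in OEA8_69. OEA8_69 was below OEA8_67 in every library, and the control libraries, of which replicate 3 was the lowest of all 9 and the other 2 lay near OEA8_67, overlapped both. None of its 3 differences passed the test, the largest being -0.19 ± 0.06 (SE) for OEA8_69 against OEA8_67 (limma adjusted p = 0.117). Without OEA8_Ctrl replicate 3 this difference was called (limma adjusted p = 0.00852), as was that of OEA8_69 from OEA8_Ctrl (-0.17, limma adjusted p = 0.0148). The ratio of Igf2 to Igf2r was 1.94 ± 0.257 (SD) in OEA8_Ctrl, 1.18 ± 0.0172 in OEA8_67 and 1.73 ± 0.0465 in OEA8_69.

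Igfbp4, an inhibitory binding protein that pappalysin cleaves in the presence of IGF, followed the order of Igf2. Its levels were 629.88, 576.95 and 614.82 FPKM in OEA8_Ctrl, 491.02, 463.97 and 450.61 in OEA8_67, and 568.9, 537.35 and 534.24 in OEA8_69. No pair of groups overlapped, with OEA8_67 lowest and OEA8_Ctrl highest. In OEA8_67 the mean fell by 22.8% (log2 difference -0.37 ± 0.05, limma adjusted p = 0.000959), a call kept under all 19 alternatives. In OEA8_69 it was 9.94% below control, which did not pass the test (-0.15, 95% interval -0.26 to -0.04, limma adjusted p = 0.0918). OEA8_69 was above OEA8_67 (0.22 ± 0.05, limma adjusted p = 0.041), a call that 9 of 19 alternatives kept. It was lost without OEA8_Ctrl replicate 1 (0.0521) and without any single OEA8_67 or OEA8_69 library (0.0639 to 0.165).

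Igfbp6, whose protein binds IGF2 in preference to IGF1, moved the other way and in the other mutant. Its levels were 61.14, 58.6 and 68.62 FPKM in OEA8_Ctrl, 64.08, 65.64 and 70.15 in OEA8_67, and 78.49, 74.96 and 81.14 in OEA8_69. All OEA8_69 libraries exceeded all others, and the other groups overlapped. The mean rose by 24.5% in OEA8_69 (log2 difference 0.31 ± 0.06 SE, limma adjusted p = 0.00574), a call kept under all 19 alternatives. For OEA8_67 against OEA8_Ctrl the interval was -0.04 to 0.22 (limma adjusted p = 0.395). OEA8_69 against OEA8_67 gave 0.23 ± 0.06 (limma adjusted p = 0.0627) and was called without OEA8_Ctrl replicate 2 (0.0446) or replicate 3 (0.0141).

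Igfbp7 and Igfbp2, the most abundant members, had lower values in both mutants that did not pass the test. IGFBP7 binds IGF only weakly and is a matrix-associated protein. Igfbp7 levels were 1287.36, 1218.05 and 1381.79 FPKM in OEA8_Ctrl, 1208.01, 1202.84 and 1195.14 in OEA8_67, and 1170.69, 1168.41 and 1146.49 in OEA8_69. No pair of groups overlapped, and the control libraries were the most spread. The log2 difference was -0.11 for OEA8_67 (95% interval -0.22 to 0.01, limma adjusted p = 0.241) and -0.16 for OEA8_69 (interval -0.27 to -0.04, limma adjusted p = 0.0915). The latter was called without OEA8_Ctrl replicate 2 (0.0425). Igfbp2, a binding protein gene active in fetal tissues, stood at 867.24, 811.21 and 931.08 FPKM in OEA8_Ctrl, 794.7, 812.38 and 784.78 in OEA8_67, and 753.15, 745.4 and 794.35 in OEA8_69. OEA8_69 lay wholly below the control, whereas OEA8_67 overlapped both groups. The log2 difference was -0.12 for OEA8_67 (limma adjusted p = 0.194) and -0.18 for OEA8_69 (interval -0.31 to -0.06, limma adjusted p = 0.0584), the latter called without OEA8_Ctrl replicate 2 (0.0234).

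Igfbp3, the main carrier of IGF in serum, was low in these cells. Its levels were 2.33, 2.41 and 1.84 FPKM in OEA8_Ctrl, 1.64, 2.06 and 2.05 in OEA8_67, and 1.71, 1.76 and 1.36 in OEA8_69. OEA8_69 lay below the control libraries but overlapped OEA8_67. The log2 difference of OEA8_69 from OEA8_Ctrl was -0.29 (95% interval -0.50 to -0.08, limma adjusted p = 0.0818), and it was called without OEA8_Ctrl replicate 3 (-0.37, limma adjusted p = 0.0242). Igfbp5, a binding protein of the extracellular matrix, ranged from 0.02 to 0.08 FPKM and was too low for the test across genes. Its means were 0.03 FPKM in OEA8_Ctrl, 0.0467 in OEA8_67 and 0.0667 in OEA8_69, and exact two-sided permutation tests gave p = 0.3, 0.1 and 0.3 for the 3 pairs, 0.1 being the smallest p that 3 against 3 libraries allow. Igfbp5 lies next to Igfbp2 on chromosome 1, 5590 bases away with no gene start between them in the RefSeq table, and the pair stood at opposite ends of the family's levels in these cells, second highest against lowest.

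**Figure D2:**
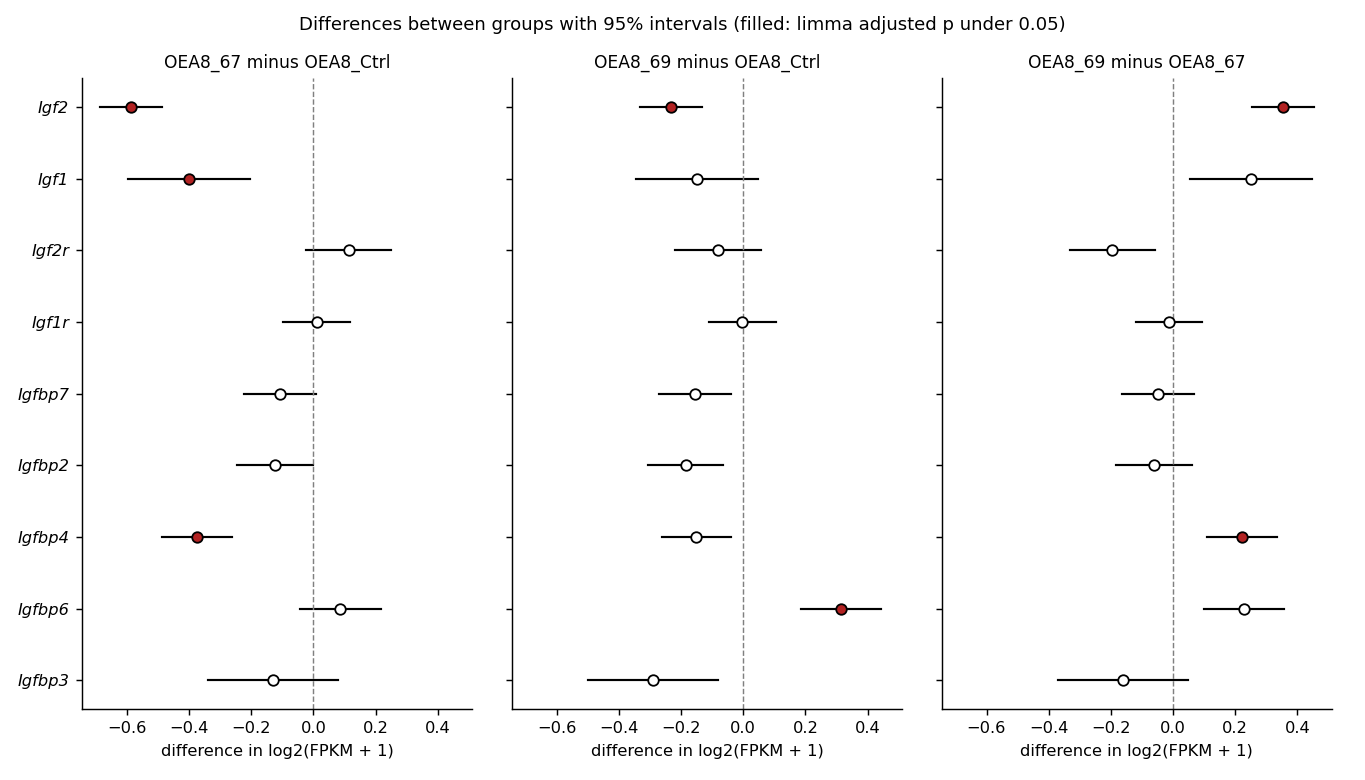
Log2 differences of the 9 tested family genes for the 3 pairs of groups with 95% intervals, filled where the limma adjusted p was under 0.05. The largest difference is that of Igf2 in OEA8_67, -0.59, and the only filled point above 0 against the control is Igfbp6 in OEA8_69, 0.31.

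Counted over the family, 9 of 10 members passed the filter on low values. For OEA8_67 against OEA8_Ctrl, 3 of 9 were called, all lower (Igf2, Igf1 and Igfbp4), where 7.88% of all genes tested were called, 3.21% as higher and 4.66% as lower. None was called higher, and none reached an unadjusted limma p under 0.05 in that direction. For OEA8_69 against OEA8_Ctrl, 2 of 9 were called, Igf2 lower and Igfbp6 higher, where 9.79% of all genes were called, 4.55% as higher and 5.24% as lower. Without OEA8_Ctrl replicate 2 or replicate 3 that count was 4. For OEA8_69 against OEA8_67, 2 of 9 were called, Igf2 and Igfbp4, both higher in OEA8_69, where 3.16% of all genes were called, 1.89% as higher and 1.27% as lower. That count was 4 without OEA8_Ctrl replicate 3, 3 without OEA8_Ctrl replicate 2 and 1 without any other single library. The F test among the 3 groups called Igf2, Igfbp4, Igfbp6 and Igf1, where 12.1% of all genes were called. Groups did not overlap for 4, 6 and 6 of the 9 members in the 3 pairs, where 28.2%, 27.5% and 31.6% of all genes did not overlap. The median log2 difference of the members was -0.12, -0.15 and -0.01 in the 3 pairs, against 0.02, 0.02 and -0.00 over all genes. The comparisons with OEA8_Ctrl share its 3 libraries.

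Summed over genes, the FPKM of the 6 binding protein genes was 2838 ± 166 (SD) in OEA8_Ctrl, 2536 ± 29.8 in OEA8_67 and 2553 ± 22.9 in OEA8_69. The summed ligands stood at 84.9 ± 3.70, 56.1 ± 1.38 and 72.1 ± 3.18 FPKM in the same order. As a description, the control and OEA8_69 libraries held 32.4 to 36.2 binding protein transcripts per ligand transcript and OEA8_67 held 44.8 to 45.9. Within the binding proteins, Igfbp7 made up 45.7%, 47.4% and 45.5% of the sum in the 3 groups, and Igfbp2 30.6%, 31.4% and 29.9%. The share of Igfbp4 was 21.4% in OEA8_Ctrl, 18.5% in OEA8_67 and 21.4% in OEA8_69. The share of Igfbp6 was 2.21%, 2.63% and 3.06%. These ratios describe RNA, since protein was not measured in these files. Igfbp7, whose protein binds IGF only weakly, counts in the sum like the others, so the ratio is no measure of IGF binding.

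**Figure D3:**
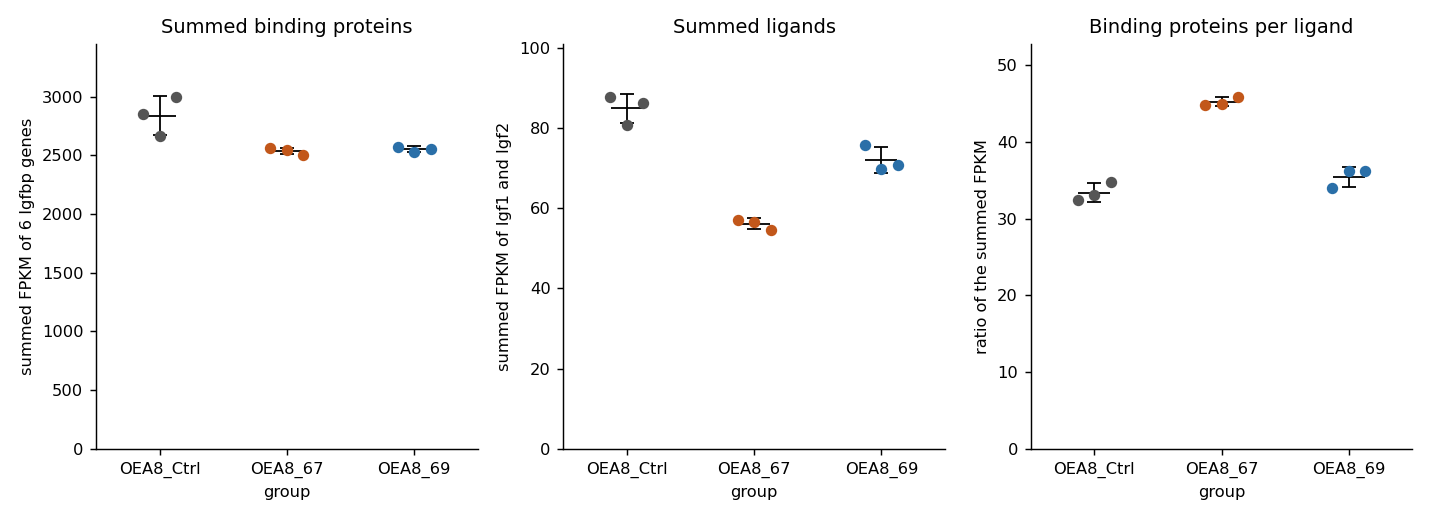
Summed FPKM of the 6 binding protein genes, summed FPKM of the ligands and the ratio of the sums in each library (points), with the mean and SD of each group. The OEA8_67 libraries stand apart in the ratio, 44.8 to 45.9 against 32.4 to 36.2 in the other groups.

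Igf2 and Igfbp4 tracked each other across the 9 libraries, with a Pearson r of 0.986 on the log2(FPKM + 1) scale. After subtraction of the group means r was still 0.896, so libraries high in Igf2 within a group tended to be high in Igfbp4. The 9 points share 3 groups and a common scaling, and no p is given. Likeness was searched among 8573 genes averaging 5 FPKM or more, with predicted and clone-named genes left out. Those most like Igf2 were Mmp11, a matrix metalloproteinase (r = 0.993), Igfbp4, and S1pr1, a receptor for sphingosine 1-phosphate (r = 0.972). Those most like Igfbp4 were Igf2, Mmp11 (r = 0.978) and Nsg1, a protein of endosomal trafficking (r = 0.963). Igfbp6 was most like Atoh8, a basic helix-loop-helix transcription factor (r = 0.968), Med16, a Mediator subunit (r = 0.965), and Hps4, a subunit of a complex for lysosome-related organelles (r = 0.964). Igfbp7 and Igfbp2 also varied together (r = 0.932, and 0.789 within groups). Igfbp6 and Igfbp3 were the most opposed members over the 9 libraries (r = -0.809, and -0.519 within groups). Within groups the most opposed were Igfbp7 and Igf2r (r = -0.88, and -0.2 over the 9 libraries).

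**Figure D4:**
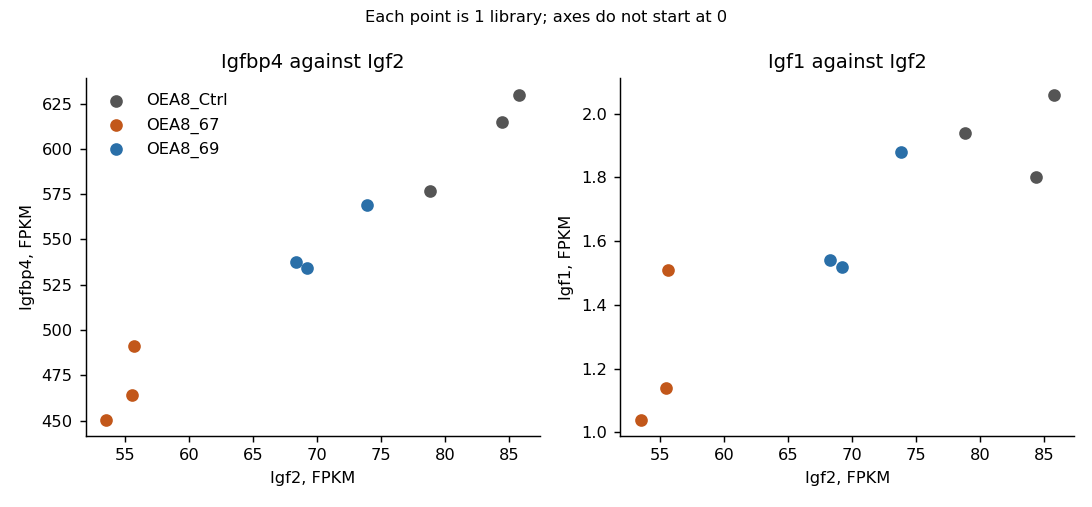
Igfbp4 against Igf2 and Igf1 against Igf2, each point 1 library, in FPKM; the axes do not start at 0. Igfbp4 rises with Igf2 both across and within groups (r = 0.986 over 9 libraries), and the OEA8_67 libraries lie at the lower left of both plots.

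Outside the family, 8 of 13 other extracellular regulators of IGF could be tested, 4 of which were called in OEA8_67, 1 higher and 3 lower, against 7.88% of all genes (3.21% higher, 4.66% lower). Stc1, a stanniocalcin that inhibits pappalysin, was at 6.16, 6.05 and 6.01 FPKM in OEA8_Ctrl, 4.56, 4.32 and 4.26 in OEA8_67, and 3.85, 3.64 and 4.31 in OEA8_69. It fell in both mutants (log2 difference -0.40, limma adjusted p = 0.00249, and -0.52, limma adjusted p = 0.000209). Pappa2, a protease that cleaves IGFBP3 and IGFBP5, averaged 1.77, 1.12 and 0.923 FPKM and also fell in both (-0.38, limma adjusted p = 0.016, and -0.52, limma adjusted p = 0.00177). The OEA8_67 call of Pappa2 was lost without OEA8_Ctrl replicate 1 (0.0569), OEA8_67 replicate 2 (0.0668) or OEA8_67 replicate 3 (0.0519). Htra1, a secreted serine protease that degrades binding proteins, averaged 42.8, 34.5 and 40.8 FPKM and fell in OEA8_67 (-0.30, limma adjusted p = 0.00671), and its rise from OEA8_67 to OEA8_69 (0.24, limma adjusted p = 0.0452) stayed called without OEA8_Ctrl replicate 2 or replicate 3 but not without any of the other libraries. Kazald1, an IGFBP-related secreted protein, averaged 9.94, 9.52 and 12.3 FPKM and was higher in OEA8_69 than in OEA8_Ctrl (0.28, limma adjusted p = 0.00921) and OEA8_67 (0.34, limma adjusted p = 0.00958, lost without OEA8_67 replicate 2, 0.0554, or OEA8_69 replicate 1, 0.0609). Adam12, a metalloprotease named here after its values were seen, was the call higher in OEA8_67 (0.29, limma adjusted p = 0.034). No gene of the list was called higher there without OEA8_Ctrl replicate 1 or 3, any OEA8_67 library or OEA8_69 replicate 3, nor with no filter or the compared groups alone. Without OEA8_Ctrl replicate 1, OEA8_67 replicate 2 or OEA8_67 replicate 3, 2 of the 8 were called in OEA8_67, Stc1 and Htra1. In OEA8_69 against OEA8_Ctrl 1 was higher and 2 lower (9.79% of all genes called), and in OEA8_69 against OEA8_67 2 were higher (3.16% of all genes called), a count of 0 or 1 without OEA8_Ctrl replicate 1 or any mutant library.

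Of 11 tested insulin receptor and adaptor genes, 1 was called higher in OEA8_67 and 2 in OEA8_69. These are 9.09% and 18.2% of the list, the former near the 7.88% of all genes called in that comparison and the latter beside 9.79%. Grb14, an adaptor that inhibits the insulin receptor, was at 15.76, 18.54 and 19.49 FPKM in OEA8_Ctrl, 22.91, 22.64 and 23.86 in OEA8_67, and 25.53, 24.71 and 24.33 in OEA8_69. Both mutants were above the control without overlap (log2 difference 0.36, limma adjusted p = 0.00663, and 0.45, limma adjusted p = 0.000967). Gab1, a docking protein, rose in OEA8_69 (0.23, limma adjusted p = 0.0296), a call lost without OEA8_Ctrl replicate 2 (0.0516) or any OEA8_69 library (0.0745 to 0.0981). Between the mutants 3 of the 11 had an unadjusted limma p under 0.05 and 0 were called, where 3.16% of all genes were called. Without OEA8_Ctrl replicate 3 the count was 2, and it was also 2 in OEA8_67 against OEA8_Ctrl. With only the compared groups in the fit, 2 of the 11 were called between the mutants, both higher in OEA8_69. Of 21 genes of the PI3K and AKT pathway, limma called 0 in each pair, where 7.88%, 9.79% and 3.16% of all genes were called. An unadjusted limma p under 0.05 was reached by 4, 5 and 1 of the 21, all higher in the first group named of the pair. For neither list was the share of all genes at that unadjusted p counted. With only the compared groups in the fit, 1 of the 21 was called, higher in OEA8_69 than in OEA8_67. Without OEA8_Ctrl replicate 3, 3 of these 21 were called in OEA8_69 against OEA8_Ctrl, 2 higher and 1 lower, and 1 was called between the mutants. Without OEA8_Ctrl replicate 1 or replicate 2 the count in OEA8_69 was 1, and without replicate 2 it was 1 in OEA8_67 too.

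Among 8 tested regulators of the Igf2 locus and its mRNA, 2 were called higher in OEA8_67, where 7.88% of all genes were called, and 1 lower in OEA8_69, where 9.79% were. Hmga2, an architectural chromatin protein of embryonic cells, was at 100.04, 103.3 and 95.91 FPKM in OEA8_Ctrl, 106.03, 100.74 and 103.83 in OEA8_67, and 83.89, 86.38 and 85.33 in OEA8_69. It was lower in OEA8_69 than in OEA8_Ctrl (-0.22, limma adjusted p = 0.00425) and than in OEA8_67 (-0.28, limma adjusted p = 0.00409), without overlap. Igf2bp3, which binds Igf2 mRNA, averaged 9.35, 11.3 and 10.6 FPKM and was higher in OEA8_67 (0.25, limma adjusted p = 0.0105). Ctcf, the insulator protein of the imprinted locus, averaged 23.6, 27.2 and 24.9 FPKM and was called higher in OEA8_67 (0.20, limma adjusted p = 0.0378), which held in only 1 of 9 fits that left out a library, that without OEA8_Ctrl replicate 2. H19, the noncoding neighbour of Igf2, was looked up by symbol and was not among the genes given, so it has no value here.

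**Figure D5:**
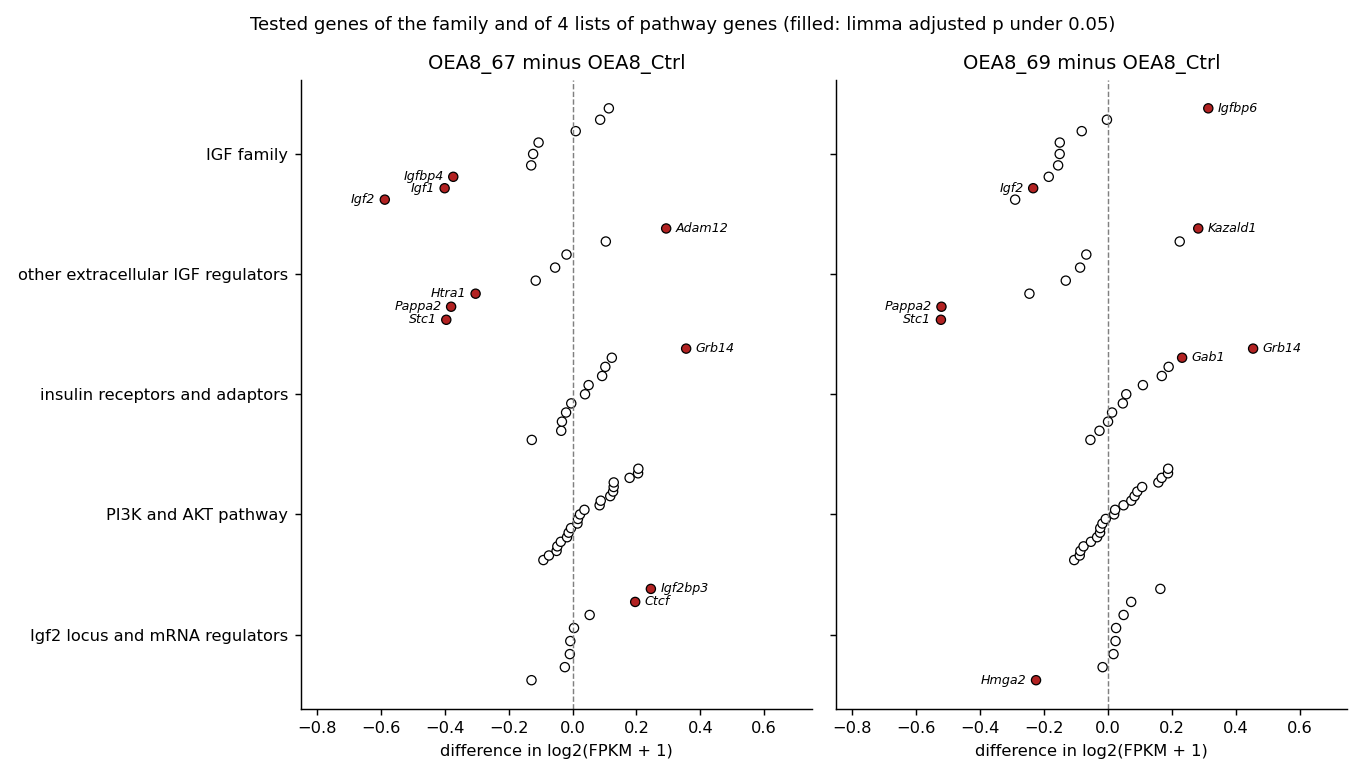
Log2 differences from OEA8_Ctrl of every tested gene of the family and of the 4 other lists, 1 point per gene, filled and named where the limma adjusted p was under 0.05. Filled points of the family lie left of 0 in OEA8_67, and Grb14 lies right of 0 in both mutants (0.36 and 0.45).

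The family's differences came with differences in markers of other cells. Summed over the endothelial list, 6 of 15 genes of which averaged at least 1 FPKM, levels were 165 to 170 FPKM in OEA8_Ctrl, 68.9 to 72.4 in OEA8_67 and 59.7 to 63.5 in OEA8_69. Cdh5, Flt1, Erg, Egfl7, Cd34 and Eng were called lower in each mutant, where 4.66% (OEA8_67) and 5.24% (OEA8_69) of all genes were. Sox18 was too but passed the filter only through the control, while Tek, Tie1, Vwf and Emcn averaged below 0.1 FPKM over the 9 libraries. Pecam1 and Kdr were too low for the test. Pecam1 averaged 0.643, 0.107 and 0.137 FPKM in the 3 groups and Kdr 0.423, 0.0733 and 0.04. The hematopoietic list summed to 327 to 348 FPKM in OEA8_Ctrl, 210 to 222 in OEA8_67 and 221 to 232 in OEA8_69. That sum was carried by Ly6a, at 210 FPKM in OEA8_Ctrl, and by Cd34, which the endothelial list also holds. Gata2 went the other way and was called higher in both mutants (41.7, 48.2 and 46.9 FPKM, limma adjusted p = 0.0141 and 0.0306). The fibroblast sum was 7787 to 8129 FPKM in OEA8_Ctrl, 7256 to 7489 in OEA8_67 and 7676 to 7836 in OEA8_69. Of 19 fibroblast markers tested, 6 were called lower and 1 higher in OEA8_67, where 4.66% of all genes were called lower and 3.21% higher. In OEA8_69, 3 were called lower and 2 higher, where 5.24% of all genes were called lower and 4.55% higher. Dcn (264.6, 174.4 and 206.0 FPKM), Lum (11.9, 7.71 and 9.63), Postn (305.2, 221.9 and 255.4) and Pdgfra (42.9, 31.6 and 35.7) had the same order of group means as Igf2. Their log2 differences in OEA8_67 were -0.60, -0.56, -0.46 and -0.43, each called. Col6a1 had that order too (259.4, 219.9 and 245.7 FPKM). Other called markers did not follow it. Fbln2 was higher in both mutants (0.26, limma adjusted p = 0.0015, and 0.22, limma adjusted p = 0.0037). Fbln1 was higher in OEA8_69 (0.33, limma adjusted p = 0.0014). Thy1 was lower in OEA8_67 but not in OEA8_69 (2.09, 1.04 and 2.43 FPKM). The chondrocyte and osteoblast sum was 1048 to 1062 FPKM in OEA8_Ctrl, 800 to 855 in OEA8_67 and 757 to 780 in OEA8_69. That fall was not shared by the list. Of its 5 tested genes, 1 was called lower and 1 higher in each mutant. Their median log2 difference from OEA8_Ctrl was 0.13 in OEA8_67 and 0.09 in OEA8_69. The adipocyte sum was 82.7 to 88.5, 71.1 to 76.8 and 76.3 to 80.7 FPKM, and the myeloid sum 38.8 to 41.3, 33.6 to 35.6 and 33.4 to 35.8. Of 4 adipocyte markers tested, 1 was called lower in OEA8_67, and 1 lower and 1 higher in OEA8_69. Of 3 myeloid markers tested, 2 were called lower in OEA8_67 and 1 in OEA8_69. The pericyte and smooth muscle sum overlapped among groups at 1625 to 1967 FPKM, most of it Acta2 at 1275 to 1606 FPKM. Single genes of that list differed all the same. Of 7 tested, 3 were called in OEA8_67, Cspg4 (0.33) and Cnn1 (0.31) higher and Tagln (-0.23) lower. In OEA8_69, 2 were called, Cspg4 higher (0.31) and Tagln lower (-0.23). Over all genes, 7.88% were called in OEA8_67 and 9.79% in OEA8_69. The part of these markers in the differences of Igf2, Igfbp4 and Igfbp6 was not tested.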

How the data were processed

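RNA-seq was performed on 9 mouse libraries, 3 in each of OEA8_Ctrl, OEA8_67 and OEA8_69, grouped and numbered as in the sample labels. RNA was isolated with TRIzol, and libraries were sequenced on the DNBSEQ platform. According to the submitters' processing notes, reads were handled with Bowtie2 2.2.5 and HISAT2 2.0.4 on mm10. Gene levels came from RSEM in the study's methods, with no version stated there. The authors deposited FPKM rounded to 2 decimals. FPKM is relative to each library's mapped fragments, so a rise of abundant genes lowers all others. No count model was applied, because whole reads could not be recovered (26.5 to 44.3% of low values were whole within 0.1, where chance gives 20%).

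Values were transformed to log2(FPKM + 1), which understates differences of low genes. The 12012 of 19240 genes averaging 0.5 FPKM or more entered a single model with all 9 libraries, in limma 3.58.1 under R 4.3.3, with a trend and Benjamini-Hochberg adjustment over all genes of a comparison. Limma tests were two-sided. The procedure was tested on simulated data. Alternatives are given with their effect in the closing section. The main model did not use the replicate numbers, and whether they pair the libraries is unknown. Identifiers were matched to RefSeq (19179 of 19240). Figures used Python 3.11.15, numpy 2.4.6 and matplotlib 3.10.9. The 10 members were all named, with up to 4 genes of each pathway list that were called in any pair of groups, taken by smallest F-test p, and the 3 genes most correlated with each of the 3 members of smallest F-test p. The members and lists were chosen with earlier results of these data known.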

Additional observations from a re-analysis of the deposited data

How the results depend on the processing

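The alternatives were a pseudocount of 0.5 or 0.1 FPKM, a filter at 5 FPKM or none, median-of-ratios or quantile scaling, a fit of the compared groups alone, moderation without a trend or robust, the replicate block, and fits without each library. Counts of all genes called ranged, over the fits without 1 library, from 463 to 1043 for OEA8_67 against OEA8_Ctrl (946 with all), from 751 to 1787 for OEA8_69 against OEA8_Ctrl (1176), from 123 to 1037 between the mutants (379) and from 915 to 2164 among the 3 groups (1451). With only the compared groups they were 607 for OEA8_67 against OEA8_Ctrl and 976 between the mutants, and between the mutants 210 with no filter. With the replicate block they were 718, 982 and 242. In deviations from group means, same-numbered libraries of different groups correlated at -0.248 to 0.149, and differently numbered ones at -0.195 to 0.28. With 3 libraries a group these deviations depend on one another, so they cannot decide whether the numbers pair the libraries. Family members called over the fits without 1 library ranged from 2 to 3 for OEA8_67 against OEA8_Ctrl, 2 to 4 for OEA8_69 against OEA8_Ctrl, 1 to 4 between the mutants and 3 to 6 among the 3 groups. Between the mutants 1 was called with no filter, quantile scaling or no trend, 4 with only the compared groups and 3 with the replicate block. Quantile scaling gave 4 for OEA8_69 against OEA8_Ctrl and 6 among the 3 groups. Igf1r, the only member whose sign turned, had log2 differences of -0.0079 with median-of-ratios and -0.0065 with quantile scaling for OEA8_67, where the main value was 0.01. Without 1 library its values ran from -0.027 to 0.042 for OEA8_67, -0.039 to 0.030 for OEA8_69 and -0.029 to 0.010 between the mutants. Single calls that changed were Igfbp2 (OEA8_69, called with median-of-ratios, adjusted p 0.0439, and quantile scaling, 0.0217), Igfbp7 (OEA8_69, quantile, 0.0125), Igf2r (between mutants, compared groups only, 0.0127) and Igfbp6 (between mutants, compared groups only, 0.0185, and replicate block, 0.033). Igfbp4 between the mutants was not called with no filter (0.0881), quantile scaling (0.0711) or no trend (0.0606). Igf1 and Igfbp3 could not be tested at 5 FPKM. Leaving out a control library does not alter the log2 differences between the mutants. It acts on their calls only through the spread shared by the groups and the adjustment over genes. The cause of these changes was otherwise not tested. Recomputation of the pathway lists without each library was added after seeing the data. Depth is unknown, and 3 libraries a group limit the precision.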
